A study of Mus musculus with 28 samples.

Results

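Dlx2+/Dcx+ neuroblasts and Prom1+ stem cells of the young adult mouse forebrain were compared cell by cell, with 5 neuroblasts and 3 Prom1+ cells, which are 8 of the 22 single cells and 8 of the 28 samples of the series. A gene was counted as expressed when its FPKM (fragments counted on a transcript, relative to its length and to all mapped fragments of the cell) was above 1 in at least 3 of the 8 cells, which kept 7502 of 37974 genes. All cells came from untreated C57BL/6 mice aged 1 month, and were taken from papain-digested SVZ, the wall of the lateral ventricle next to the striatum. Sorted single cells were amplified by the Smart-seq2 method, and quantitative PCR of the cDNA for Prom1, Dlx2, Dcx and Gfap picked the cells to sequence. The study then grouped the sequenced cells by their transcriptomes and named the groups from marker genes, among them Hes5, Nr2e1, Egfr, Slc1a3, Cd24a, Sp8 and Sp9. No gene level is therefore independent of the grouping, and every difference here is a description of groups formed on these same cells. The other cells of the series were 4 Dlx2+/Dcx+ and 3 Prom1+ cells of 24 months and 7 Gfap+ cells, and whole tissue made up the remaining samples. The labels name no animal for any cell, so each subpopulation at 1 age counted as 1 sample and no test or standard error was possible. Cells of 1 subpopulation may share an animal, a sort and a day, and the groups cannot be told apart from these.

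In this niche, neural stem cells that carry Prom1 (CD133) and the epidermal growth factor receptor divide and give rise, through transit-amplifying progenitors, to neuroblasts. Neuroblasts leave the ventricle wall in chains along the rostral migratory stream, keep dividing on the way, and become mainly GABA-producing interneurons of the olfactory bulb. Dlx homeodomain factors and the zinc finger factors Sp8 and Sp9 act in that interneuron programme, whereas Notch signalling and its target Hes5 hold cells in the stem state.

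The study does not state which oligonucleotides were used on single-cell cDNA. Those it lists for quantitative PCR of Prom1, Dlx2 and Dcx are shown because assays of these genes picked the cells. They are written 5′ to 3′ in lower case.
Prom1 forward: tacagaatataagagccatccacc
Prom1 probe: ccctccagcaaacaagcaacaagt
Prom1 reverse: acagagtccaaagaggcaag
Dlx2 forward: gcctcacccaaactcagg
Dlx2 probe: ttccagaaccgccgatccaagt
Dlx2 reverse: gccgcttttccacatcttc
Dcx forward: cagtcagctctcaacacctaag
Dcx probe: tcctatctctacacccacaagccct
Dcx reverse: catctttcacatggaatcgcc
All 9 matched transcripts of their gene without a mismatch in the GENCODE annotation of GRCm38. The Prom1 assay lay in coding exons 18, 19 and 20 of 25 on the minus strand, with the forward primer at chr5:44012908-44012931 and the reverse primer at chr5:44007066-44007085. The Dlx2 forward primer crossed the junction of exons 2 and 3 of 3, and its bases therefore ended at chr2:71544924-71545400 around the intron. The Dcx forward primer and probe lay in exon 6 of 7, at chrX:143870667-143870688 and chrX:143870631-143870655, and the reverse primer in exon 7 at chrX:143863545-143863565, not wholly within coding sequence. The amplified transcript pieces were 148 bases for Prom1, 74 for Dlx2 and 145 for Dcx, so each assay reads only a short stretch of its transcript.

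The sequenced RNA of the assayed genes followed the labels, as their choice requires. Values are given in the order of the cell numbers, Dlx2+/Dcx+ cells 1 to 5 and then Prom1+ cells 1 to 3. Dlx2, a homeodomain factor at chr2:71543408-71546754, stood at 460.1, 799.7, 269.6, 730.3 and 1916 FPKM in the neuroblasts and at 0.26, 0.79 and 0.48 FPKM in the Prom1+ cells. Dcx, the doublecortin gene of migrating neurons at chrX:143855842-143933311, stood at 60.0, 24.6, 126, 186 and 50.8 FPKM against 0.13, 0 and 0.025 FPKM. Prom1 at chr5:43993620-44102032 was less clean, with 1.93, 0, 0, 0 and 6.29 FPKM in the neuroblasts and 25.1, 14.0 and 30.9 FPKM in the Prom1+ cells. These 3 assayed genes separated the groups without overlap, although neuroblasts 1 and 5 had some Prom1. The other assayed gene, Gfap, was at 0.31, 0, 0.12, 0 and 0.33 FPKM against 0, 0 and 0 FPKM. Hes5, which the assays did not use but the naming of the groups did, was listed at 0, 0, 0.28, 0 and 0 FPKM in the neuroblasts and at 0.14, 41.5 and 115 FPKM in the Prom1+ cells, so Prom1+ cell 1 was no higher than the highest neuroblast.

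**Figure D1:**
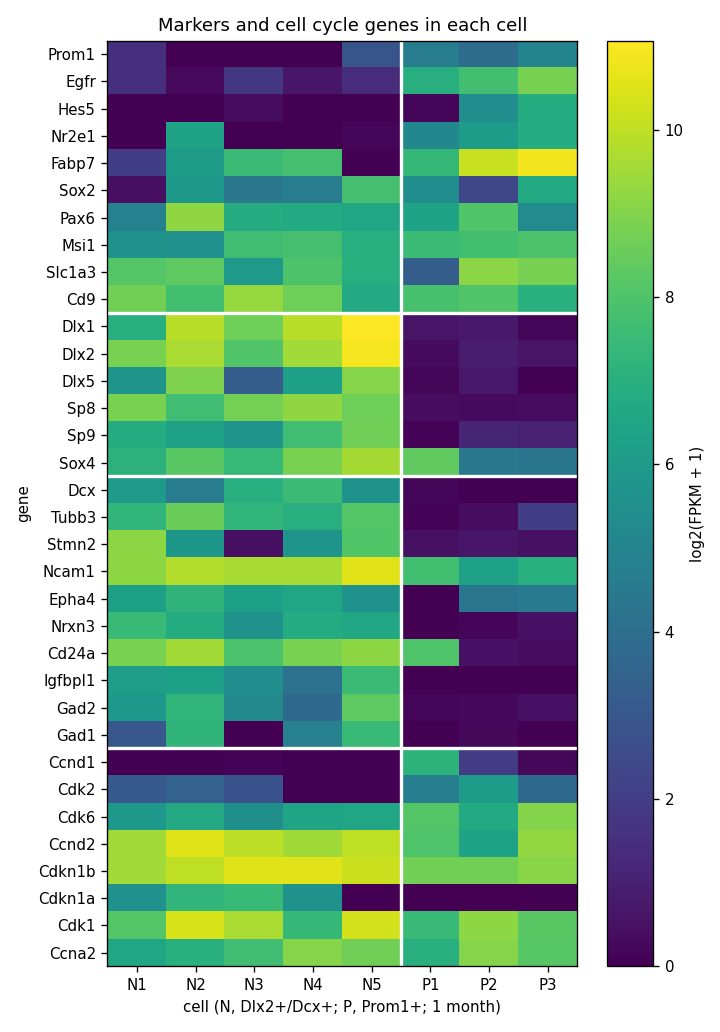
Heat map of log2(FPKM + 1) for 34 genes (rows, grouped by role) in the 5 Dlx2+/Dcx+ cells (N1 to N5) and the 3 Prom1+ cells (P1 to P3) of 1 month (columns), with dark for low and yellow for high levels. The Dlx1, Dlx2, Sp8 and Sp9 rows are high in every N column and low in every P column, while Dlx5 varies among the N columns. Egfr is high in every P column and low in every N column, and Sox2, Pax6, Msi1 and Cd9 are filled on both sides.

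Of the lists for other brain cells, those for oligodendrocytes, astrocytes and mature neurons had expressed members. None of the listed ependymal, endothelial, mural, microglial, oligodendrocyte precursor or blood genes was expressed by the rule. Summed over their lists, ependymal genes reached 0 to 0.45 FPKM in the neuroblasts and 0 to 11.6 FPKM in the Prom1+ cells. Endothelial genes reached 0 to 0.066 and 0 to 4.47 FPKM, and mural genes 0.45 to 1.05 and 0.94 to 2.51 FPKM. Oligodendrocyte precursor genes summed to 0 to 7.63 and 0.53 to 1.26 FPKM, and blood genes to 0 to 15.1 and 0 to 2.35 FPKM. Microglial genes summed to 0.43 to 186 FPKM in the neuroblasts and 0.31 to 1.89 FPKM in the Prom1+ cells, but the highest sum was nearly all Trem2 in 1 neuroblast, and the defining genes P2ry12, Tmem119, Csf1r and C1qa were listed at 0 in all 8 cells. Of the 11 astrocyte genes 4 were expressed, Gja1, Slc1a2, Fgfr3 and Ntsr2, none of which separated the groups, with sums of 26.7 to 631 FPKM and 38.7 to 337 FPKM, and Aqp4 at 0 throughout. Of 11 mature neuron genes only Snap25 and Syp were expressed, with sums of 7.52 to 160.0 and 0.084 to 45.7 FPKM. Of 12 oligodendrocyte genes 6 were expressed, with sums of 68.8 to 324 and 47.0 to 279 FPKM. Mobp, a myelin protein gene, was the exception that separated the groups, at 2.16, 2.54, 1.92, 8.87 and 2.50 FPKM in the neuroblasts against 0.92, 0.39 and 1.38 FPKM in the Prom1+ cells. The part of these few signals in the differences given here was not tested.

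The cells were of similar richness, with 5278 to 6286 genes above 1 FPKM in a neuroblast and 6054 to 6485 in a Prom1+ cell. Genes of the mitochondrial genome took 18.6% to 27.5% of the summed FPKM in the neuroblasts and 24.6% to 35.3% in the Prom1+ cells. The serine tRNA gene mt-Ts1 made up most of this in every cell, at 11% to 16.5% and 16.2% to 30.2%. The study lists more mapped reads for every Prom1+ cell of 1 month than for every Dlx2+/Dcx+ cell of that age, and the part of depth in the differences was not tested. Across expressed genes, Pearson's r of log2(FPKM + 1) was 0.38 to 0.441 between 2 neuroblasts, 0.442 to 0.47 between 2 Prom1+ cells and 0.338 to 0.443 across the groups, as a description over genes. The highest mixed value involved Prom1+ cell 1, and the ranges of neuroblast pairs and mixed pairs overlapped.

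A difference is the mean log2(FPKM + 1) of the neuroblasts minus that of the Prom1+ cells. A gene was past the size limit when that difference exceeded 1 in either direction and no neuroblast overlapped a Prom1+ cell. By this rule 142 genes were higher in every neuroblast, 1.89% of the 7502 expressed genes, and 187 were higher in every Prom1+ cell, 2.49%. The split depended on scaling, since quantile normalization gave 233 and 175, and TPM without mitochondrial genes gave 125 and 246. The median difference over all expressed genes was -0.10, and it was -0.26 after rescaling every cell to 1 common sum (TPM) without mitochondrial genes and 0.04 after quantile normalization. A gene found only in Prom1+ cells had to exceed 1 FPKM in all 3 of them to be counted, and a neuroblast gene in 3 of 5. For a ranking by size, a protein-coding gene without overlap also had to exceed 1 FPKM in every cell of the higher group. It had to be above 0 in at least 1 cell of the lower group as well. This left 96 genes to rank on the neuroblast side and 163 on the Prom1+ side, and larger differences exist outside them. In 21 of the 142 and 14 of the 187 genes, the lower group was listed at 0 in every cell. A zero here may be a failed estimate: Actb, the beta-actin gene that all cells use, stood at 19286, 15486, 15216, 20914 and 21275 FPKM in the neuroblasts and was listed at 0 in all 3 Prom1+ cells. The related actin gene Actg1 was at 255, 80.5, 59.9, 271 and 226 FPKM against 101, 139.5 and 167 FPKM. The mitochondrial 16S ribosomal RNA gene mt-Rnr2 stood at 21378, 19370.1, 14866, 19668 and 17527 FPKM in the neuroblasts and was also listed at 0 in the Prom1+ cells. At 24 months Actb was again listed at 0 in all 3 Prom1+ cells, whereas mt-Rnr2 stood at 16031, 9645 and 15711 FPKM there. The mitochondrial tyrosine tRNA gene mt-Ty and Sirt4, which encodes a mitochondrial sirtuin, showed the reverse, with 149.7, 163 and 369 FPKM for Sirt4 in the Prom1+ cells and 0 in each neuroblast. These 4 genes were the only ones above 50 FPKM in every cell of 1 group and listed at 0 throughout the other, and no fold is given for them.

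Among the lists, transcription factors of the interneuron programme had several of the largest differences. Dlx1, the neighbour of Dlx2 at chr2:71528113-71533981, stood at 125, 940.1, 389.7, 936 and 2146 FPKM in the neuroblasts and 0.52, 0.67 and 0.14 FPKM in the Prom1+ cells, a difference of 8.77. Sp8 stood at 452, 201, 432, 593 and 389 FPKM against 0.28, 0.24 and 0.31 FPKM, a difference of 8.26. For Sp9 the values were 116, 79.1, 53.1, 204 and 411 FPKM and 0.069, 1.19 and 1.02 FPKM. No Prom1+ cell came near a neuroblast in any of these genes. Dlx5, a later Dlx factor, ranged widely among the neuroblasts, at 52.7, 489, 8.70, 74.6 and 529 FPKM, and stood at 0.13, 0.68 and 0 FPKM in the Prom1+ cells. Dlx6 was above 1 FPKM in neuroblasts 4 and 5 alone, at 251 and 50.6 FPKM. The transcript Dlx1as, antisense to Dlx1, was picked after its values were seen and had a difference of 7.41. No strand information is stated for the libraries, so its reads and those of Dlx1 cannot be told apart. Of the 15 expressed Dlx, Sp and Sox factors 6 were higher in every neuroblast and none in every Prom1+ cell, beside 1.89% and 2.49% of all genes, and the 6 include Dlx2, Sp8 and Sp9, which picked the cells or named the group. Sox4 did not separate the groups, at 136, 297, 171, 451 and 753 FPKM against 326, 20.8 and 18.7 FPKM, since Prom1+ cell 1 lay among the neuroblasts.

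Part of the promoter of Dlx2 and of Dcx is printed here because those genes picked the neuroblasts and are among the 10 genes ranked highest on the neuroblast side. Each line gives the 250 bases before the start in RefSeq on GRCm38.p6, 5′ to 3′ on the gene's strand, with capitals for TAATTA, letters that homeodomain proteins including Dlx factors can bind, and for CANNTG, the E-box of basic helix-loop-helix factors.
Dlx2 chr2:71546755-71547004, minus strand: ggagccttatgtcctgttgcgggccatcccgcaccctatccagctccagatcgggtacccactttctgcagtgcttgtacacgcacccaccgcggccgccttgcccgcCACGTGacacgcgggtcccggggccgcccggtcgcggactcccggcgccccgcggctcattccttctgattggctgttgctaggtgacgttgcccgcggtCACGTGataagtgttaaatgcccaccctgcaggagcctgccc
Dcx chrX:143933220-143933469, minus strand: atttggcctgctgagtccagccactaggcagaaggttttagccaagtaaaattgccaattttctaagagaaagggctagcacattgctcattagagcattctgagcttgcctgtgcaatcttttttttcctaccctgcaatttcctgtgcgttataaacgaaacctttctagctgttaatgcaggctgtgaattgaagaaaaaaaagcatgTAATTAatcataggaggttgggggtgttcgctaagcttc
The Dlx2 window held CACGTG, a form of the E-box, at 2 places and no TAATTA, and the Dcx window held TAATTA once and no CANNTG. The RefSeq start used for Dcx lies inside the GENCODE span given for the gene, and the end of the window with TAATTA falls within that span. Both motifs read the same on either strand and do not overlap each other here. TAATTA occurred in 5.65% of the promoters of all 27025 genes with a window of this length, in 2.83% of expressed genes, in 4 of 95 genes higher in neuroblasts (4.21%) and in 2 of 152 genes higher in Prom1+ cells (1.32%). CANNTG was in 69.3%, 58.8%, 57.9% and 53.9% of the same sets. These are letters in a window and no evidence of binding.

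A minority of the cytoskeletal genes of young neurons separated the groups. Tubb3, the neuronal beta-tubulin, stood at 157, 378, 155, 119.9 and 274 FPKM in the neuroblasts and 0.089, 0.31 and 3.16 FPKM in the Prom1+ cells. Fscn1, which bundles actin in growing processes, stood at 137, 63.3, 12.6, 37.5 and 126 FPKM against 4.67, 0.1 and 7.70 FPKM. Dpysl5, a growth cone protein of the collapsin response mediator family, stood at 38.2, 4.73, 17.7, 36.8 and 348 FPKM against 3.72, 0.51 and 0 FPKM. Other members were shared. Stmn1, a microtubule-destabilizing stathmin, was highly abundant on both sides, at 2983, 5258, 3976, 3829 and 4434 FPKM against 2719.5, 2554 and 2568 FPKM, and its difference of 0.62 stayed within the size limit although no cell overlapped. Tubb2b, Map2, Marcks and Dpysl2 overlapped between the groups. Mapt, the tau gene, was higher in every Prom1+ cell, at 2.10, 23.6, 37.3, 3.02 and 3.31 FPKM in the neuroblasts and 191, 64.0 and 74.6 FPKM in the Prom1+ cells. Of the 24 expressed genes of this list 4 were higher in every neuroblast, Mapt alone was higher in every Prom1+ cell, beside 1.89% and 2.49% of all genes, and 19 were not past the limit, with a median difference of 1.66 beside the -0.10 of all genes. The 4 include Dcx, which picked the cells.

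Some surface and adhesion genes separated the groups, in both directions. Ncam1, the carrier of the polysialic acid that migrating neuroblasts display, was present in every cell but higher in the neuroblasts, at 579, 874, 784, 779 and 1527 FPKM against 207, 78.6 and 123 FPKM. Epha4, an ephrin receptor, stood at 77.3, 144, 74.7, 90.0 and 51.0 FPKM against 0.025, 19.2 and 23.4 FPKM. Nrxn3, a presynaptic neurexin, stood at 172, 115, 48.8, 110.0 and 95.7 FPKM against 0, 0.1 and 0.47 FPKM, and the protocadherin gene Pcdh9 at 52.2, 186, 99.2, 81.2 and 64.3 FPKM against 0.042, 0 and 0.062 FPKM. All 4 genes separated every neuroblast from every Prom1+ cell. Guidance receptors known from the migratory stream were sparse, since Robo2, Nrp1, Dcc, Unc5d, Erbb4 and Prokr2 reached 1 FPKM in at most 2 of the 5 neuroblasts and were not expressed by the rule. Itgav, integrin alpha v, ran the other way at 1.45, 0, 1.18, 0 and 1.53 FPKM in the neuroblasts and 88.7, 409 and 1.69 FPKM in the Prom1+ cells. Prom1+ cell 3 lay just above the highest neuroblast. Among 9 expressed guidance and adhesion receptors, 2 were higher in every neuroblast and 1 in every Prom1+ cell, beside 1.89% and 2.49% of all genes. Cd24a, a surface antigen of neuroblasts, had 451, 735, 243, 454 and 585 FPKM in the neuroblasts but 256, 0.48 and 0.27 FPKM in the Prom1+ cells, so cell 1 overlapped. Without that cell its difference was 8.41, against 5.89 with it.

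Genes for making the transmitter GABA were found in the neuroblasts. Gad2, which encodes a form of the GABA-making enzyme glutamate decarboxylase, stood at 58.8, 155, 35.6, 12.8 and 322 FPKM against 0.16, 0.18 and 0.44 FPKM. Its partner Gad1 stood at 6.92, 149, 0, 26.9 and 181 FPKM against 0, 0.17 and 0 FPKM and was listed at 0 in neuroblast 3. The vesicle transporter Slc32a1, needed for release, did not exceed 1.52 FPKM in any cell. Gabrb2, a GABA-A receptor subunit, stood at 34.6, 0.054, 239.7, 2.02 and 4.38 FPKM and was listed at 0 in all 3 Prom1+ cells, with neuroblast 2 barely above them. Of 15 listed genes 5 were expressed, and 2 of these were higher in every neuroblast, beside 1.89% of all genes.

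Over the whole neuroblast list, 38 of 44 genes were expressed, 17 were higher in every neuroblast, which is 44.7% of the 38 beside 1.89% of all expressed genes, and none was higher in every Prom1+ cell. The median difference was 4.28 over the expressed members and 2.69 over all 44. The list holds Dlx2 and Dcx, which picked the cells, and Cd24a, Sp8 and Sp9, which the study used to name the group. Further members past the limit included Elavl4, a neuronal RNA-binding protein at 24.4, 197, 176, 355 and 109.8 FPKM against 0.22, 0 and 5.40 FPKM, and Igfbpl1, an insulin-like growth factor binding protein-like gene at 71.4, 75.0, 42.1, 16.4 and 187 FPKM against 0 in every Prom1+ cell. Tiam2, an activator of the GTPase Rac, and Celf4, an RNA-binding protein, were past it as well, each with 1 neuroblast below 1 FPKM. Tiam2 stood at 157, 0.54, 223, 222 and 169.5 FPKM and Celf4 at 42.9, 207, 186, 0.096 and 105 FPKM in the neuroblasts. Some classical neuroblast genes stayed out: Sox11 at 0, 2.65, 10.3, 0 and 19.1 FPKM against 10.9, 0.14 and 13.5 FPKM, Dclk1 at 233, 11.9, 35.8, 52.9 and 288 FPKM against 6.02, 106 and 128 FPKM, and the polysialyltransferase gene St8sia2, above 1 FPKM in 2 neuroblasts and 1 Prom1+ cell.

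**Figure D2:**
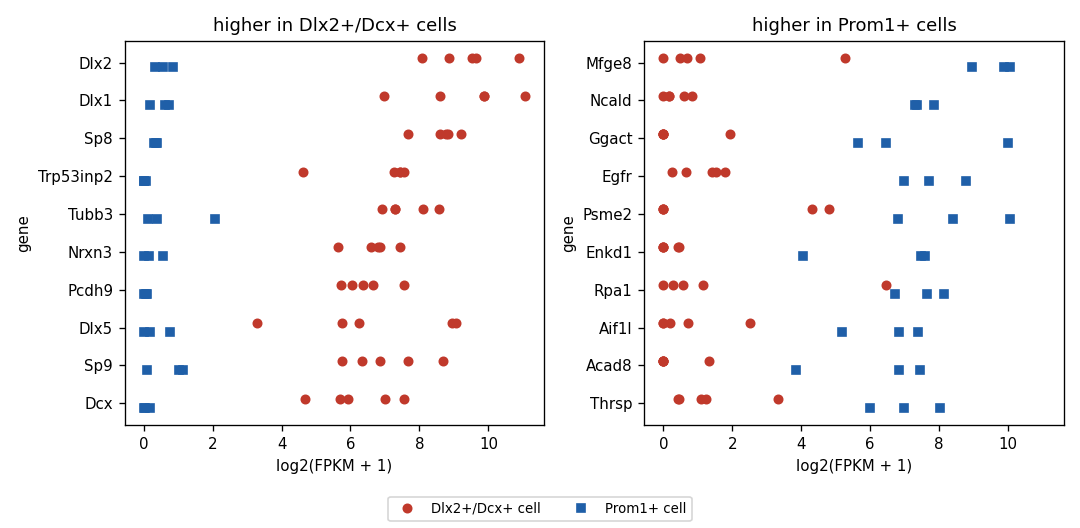
The 10 highest ranked protein-coding genes in each direction (rows, by size of difference), with log2(FPKM + 1) of each cell on the horizontal axis, circles for the 5 Dlx2+/Dcx+ cells and squares for the 3 Prom1+ cells of 1 month. Ranked genes did not overlap, exceeded 1 FPKM in every cell of the higher group and were above 0 in at least 1 cell of the lower group. No circle overlaps a square in any row, and Rpa1 has 1 neuroblast near the Prom1+ cells.

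On the Prom1+ side Egfr, the growth factor receptor of activated stem cells at chr11:16752203-16918158, was among the 10 genes ranked highest. It stood at 1.87, 0.2, 2.48, 0.57 and 1.64 FPKM in the neuroblasts and 125, 208 and 441 FPKM in the Prom1+ cells, a difference of -6.70. Etv5, an ETS factor switched on by receptor and Erk signalling, stood at 0.21, 0, 0.085, 0.1 and 0 FPKM against 11.5, 33.7 and 46.4 FPKM. Spry2, a feedback inhibitor of the same pathway, was high in both groups at 254, 313, 139.6, 491 and 878 FPKM against 839, 1963 and 802 FPKM, and neuroblast 5 overlapped. Of 11 expressed genes of the Ras-Erk cascade itself none was past the limit in either direction, which with 1.89% and 2.49% of all genes past it is near the background, and the median difference was -0.02. Mapk3 (Erk1) stood at 0, 21.2, 0, 39.0 and 0 FPKM against 44.1, 18.6 and 28.8 FPKM, with overlap. Among 5 expressed Erk feedback and target genes only Etv5 was past the limit, beside 2.49% of all genes. Of the other growth factor receptors, Fgfr1 and Fgfr2 overlapped, at 0, 3.78, 0, 0.34 and 1.50 FPKM against 0.047, 34.7 and 10.4 FPKM for Fgfr1.

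Notch genes were uneven among the Prom1+ cells. The receptor genes Notch1 and Notch2 stood at 3.00, 79.6, 39.4, 3.42 and 0.24 FPKM against 69.3, 97.8 and 31.5 FPKM and at 0.078, 0, 7.24, 32.9 and 0.21 FPKM against 1.45, 109 and 51.1 FPKM, both with overlap. The target Hes5 was above 40 FPKM in Prom1+ cells 2 and 3 and below 1 FPKM elsewhere, and Hes1 was above 0 in Prom1+ cell 3 alone, at 146 FPKM. The ligand gene Dll4 was above 1 FPKM in Prom1+ cell 1 alone, at 68.5 FPKM, while Dll1 stood at 0.22, 129, 0, 0 and 0 FPKM against 42.4, 0 and 0 FPKM. Dll3 stood at 23.7, 0, 0, 0 and 0 FPKM against 34.0, 0 and 0 FPKM, so Delta ligand RNA was also found in neuroblasts 1 and 2. Jag1, the only ligand gene expressed by the rule, stood at 60.6, 36.8, 0.056, 0 and 0.073 FPKM against 0.027, 13.7 and 134 FPKM. Jag1 overlapped between the groups. Lfng, the lunatic fringe glycosyltransferase that modifies Notch receptors, was the only Notch gene past the limit, at 2.86, 5.76 and 4.33 FPKM in the Prom1+ cells and 0 in every neuroblast. Of the 7 listed targets only Hes6 and Nrarp were expressed by the rule. Their median difference of -2.00 rests on 2 genes, beside -0.37 over all 7 targets. Neither gene was past the limit. Of 12 expressed modulators of the pathway Lfng alone was past it, beside 2.49% of all genes, with a median of 0.17. Hes6, which acts against Hes1 in neurogenesis, was in every cell, at 130.0, 254, 438, 103 and 291 FPKM against 889, 19.2 and 1179 FPKM.

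Other stem cell genes were higher in Prom1+ cells without full separation. Fabp7, the brain fatty acid binding protein of radial glia, stood at 3.13, 64.7, 186, 223 and 0 FPKM against 166, 1133 and 1901 FPKM. Nr2e1 (Tlx), a nuclear receptor needed for stem cell renewal, stood at 0, 81.2, 0, 0 and 0.13 FPKM against 34.6, 69.3 and 116 FPKM, with neuroblast 2 among the Prom1+ cells. Id4, an inhibitor of differentiation, was above 1 FPKM only in Prom1+ cells 2 and 3, at 64.8 and 85.4 FPKM. Sfrp1, a secreted Wnt modulator, was above 1 FPKM in the same pair alone, at 29.7 and 111 FPKM. The Hedgehog co-receptor gene Cdon separated fully, at 0, 0.97, 4.10, 0 and 0 FPKM in the neuroblasts against 14.5, 32.5 and 7.82 FPKM, while Ptch1 was above 1 FPKM in Prom1+ cell 2 alone. Cdon was 1 of 4 expressed Hedgehog genes and the only one past the limit, beside 2.49% of all genes, and their median difference was -2.26, against 0.00 over all 12 listed. Apc, a Wnt pathway brake that also binds microtubules, separated the other way, at 0.31, 208, 83.7, 26.9 and 28.7 FPKM in the neuroblasts against 0.061, 0.029 and 0 FPKM, and neuroblast 1 was below 1 FPKM. It was the only one past the limit among 7 expressed Wnt genes, with a median of -0.19, and none of 7 expressed Id and BMP genes was, with a median of -0.15. Over all genes the shares were 1.89% and 2.49%. Without Prom1+ cell 1 the medians were -0.43 and -1.27.

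Many stem cell genes did not distinguish the groups. Pax6 stood at 28.5, 594, 114, 109 and 89.3 FPKM in the neuroblasts and 83.9, 269 and 39.9 FPKM in the Prom1+ cells. Sox2 stood at 0.36, 58.7, 19.8, 25.0 and 222 FPKM against 42.6, 4.28 and 103 FPKM and Msi1 (Musashi) at 49.9, 47.4, 205, 222 and 127 FPKM against 187, 212 and 252 FPKM. Slc1a3, the glutamate transporter Glast used as a stem cell and astrocyte marker, was in all neuroblasts, at 271, 321, 63.3, 252 and 125 FPKM against 8.50, 561 and 444 FPKM. Cd9 and Sox9 overlapped in the same way. In the neural stem cell list 28 of 36 genes were expressed, only Prom1 and Egfr were higher in every Prom1+ cell (7.14% beside 2.49% of all genes), and none was higher in every neuroblast. The median difference was -1.33, with 19 members below 0 and 9 above, and the members include Prom1, which picked the cells, and Hes5, Nr2e1, Egfr and Slc1a3, which the study used to name the group.

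**Figure D3:**
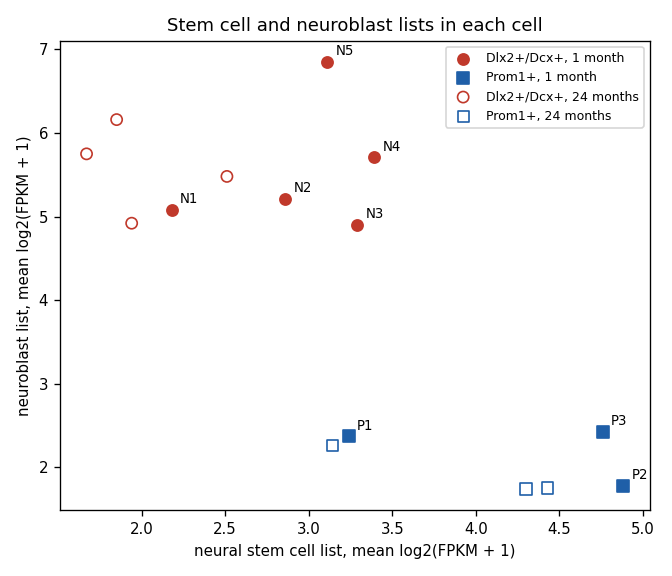
Mean log2(FPKM + 1) of the 36 neural stem cell genes (horizontal) and the 44 neuroblast genes (vertical) in each cell, with circles for Dlx2+/Dcx+ and squares for Prom1+ cells, filled at 1 month (N1 to N5, P1 to P3) and open at 24 months. The neuroblast level of the 1-month cells is 4.90 to 6.85 in N1 to N5 and 1.78 to 2.42 in P1 to P3, and on the horizontal axis P1 lies among the neuroblasts.

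Prom1+ cell 1 stood apart from cells 2 and 3. It had the highest mitochondrial share of all 8 cells, 35.3% against 26.4% and 24.6% in the other Prom1+ cells. As in every cell, most of that share was the serine tRNA gene mt-Ts1, at 30.2% here and 21.8% and 16.2% in cells 2 and 3. Shares without that gene were not computed, and the part of this in the other values of cell 1 was not tested. Its mean level of the neural stem cell list was 3.24, within the neuroblasts' 2.18 to 3.39, whereas cells 2 and 3 had 4.88 and 4.76. It had 592 FPKM of Gadd45g, a growth arrest and DNA damage inducible gene, the highest of all 8 cells. Single neuroblast genes were high in it, with Sox4 at 326 FPKM, Cd24a at 256 FPKM and Dpysl3 at 398 FPKM, yet its mean over the whole neuroblast list was 2.37, beside 1.78 and 2.42 in cells 2 and 3. It had the lowest values of the 8 cells for Slc1a3, Vim and Sox9, at 8.50, 0.075 and 0.076 FPKM, but the highest mean level of the oligodendrocyte list, 2.50. Yet Dlx1, Dlx2, Sp8 and Dcx were below 1 FPKM in it, and Egfr was 125 FPKM. Without this cell, 291 genes were higher in every neuroblast and 366 in every Prom1+ cell, counts that grow with fewer cells because overlap is rarer. Over the same expressed genes, the list medians without it were 4.18 for neuroblast genes and -1.48 for neural stem cell genes, against 4.28 and -1.33. The Notch target median of -2.00 was -1.29 over the same 2 genes without it. The medians of some other lists moved further in proportion, from -0.10 to -0.72 for immediate early and stress genes, from 0.14 to 0.84 for cholesterol synthesis and from -0.02 to 0.09 for the Ras-Erk kinases.

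Of the 10 genes that led the ranking on the Prom1+ side 9 were in none of the lists. Mfge8, a secreted protein that links phosphatidylserine on membranes to integrins, was first with 0.62, 0, 37.9, 0.4 and 1.10 FPKM in the neuroblasts and 1067, 952 and 494 FPKM in the Prom1+ cells, a difference of -8.13. Its gene lies at chr7:79133768-79149060. Integrin alpha v, one of its receptors, was also higher in every Prom1+ cell, though barely so in cell 3. Ncald, a neuronal calcium sensor, stood at 0.11, 0, 0.52, 0.12 and 0.77 FPKM against 156, 228 and 165 FPKM. Ggact, which breaks down protein crosslinks left by transglutaminase, stood at 0, 0, 2.80, 0 and 0 FPKM against 48.7, 1014 and 86.3 FPKM. Psme2, a subunit of the PA28 proteasome activator, stood at 26.8, 0, 0, 0 and 18.7 FPKM against 337, 1056 and 111 FPKM. Thrsp (Spot14), a regulator of fatty acid synthesis known from adult neural stem and progenitor cells, stood at 0.35, 8.95, 1.14, 1.34 and 0.37 FPKM against 127, 262 and 62.3 FPKM. Acad8, an enzyme of valine breakdown, stood at 0, 0, 0, 0 and 1.50 FPKM against 13.4, 114 and 175 FPKM. Enkd1, Aif1l and Rpa1, the large subunit of the single-strand DNA binding complex of replication, completed the group with differences of -6.20, -5.79 and -5.81. Rpa1 reached 86.9 FPKM in neuroblast 3, close to the 105 FPKM of Prom1+ cell 3. On the neuroblast side Trp53inp2, an autophagy and transcription regulator, was the only member of the first 10 besides Pcdh9 that no list held, at 23.5, 188, 172, 154 and 174 FPKM against 0.039, 0 and 0 FPKM.

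Both groups held the RNA of dividing cells. Cdk1, the mitotic kinase, stood at 275, 1356, 808, 162 and 1269 FPKM in the neuroblasts and 177, 582 and 304 FPKM in the Prom1+ cells, and Ccna2 at 91.7, 128, 204, 537 and 409.7 FPKM against 125, 536 and 292 FPKM. Ccnd2 was in every cell but higher in the neuroblasts, at 745, 1494, 1004, 719 and 1025 FPKM against 259.8, 83.5 and 616 FPKM. Ccnd1 was at most 0.086 FPKM in a neuroblast and stood at 139.9, 2.85 and 0.19 FPKM in the Prom1+ cells, so its gap rests on Prom1+ cell 1, it did not pass the filter, and Ccnd2 was the higher of the pair in every Prom1+ cell. Its difference of -3.09 became -1.07 without that cell. The G1 kinases Cdk6 and Cdk2 were higher in every Prom1+ cell, at 58.8, 102, 44.8, 86.0 and 92.7 FPKM against 277, 109 and 511 FPKM for Cdk6 and 7.75, 10.2, 5.84, 0 and 0 FPKM against 25.7, 66.4 and 12.6 FPKM for Cdk2. Cdk4 overlapped. Of 10 expressed cyclin and kinase genes Ccnd2 was thus higher in every neuroblast and Cdk2 and Cdk6 in every Prom1+ cell, beside 1.89% and 2.49% of all genes. Of 10 expressed inhibitors 1 was past the limit, beside 1.89% of all genes: Cdkn1b (p27) was present in all cells and higher in every neuroblast, at 744, 1042, 1459, 1515 and 1146 FPKM against 421, 413 and 546 FPKM. Cdkn1a (p21) was at 47.7, 154, 178, 48.8 and 0 FPKM in the neuroblasts and listed at 0 in all Prom1+ cells, with neuroblast 5 also at 0.

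Phase genes varied widely from cell to cell within each group. Of 54 G2/M phase genes all were expressed, 1 was higher in every neuroblast, beside 1.89% of all genes, and the median difference was 0.34. That gene was Cdc20, the activator of the anaphase-promoting complex, at 206, 383, 640.3, 509.7 and 367 FPKM against 108, 0.35 and 122 FPKM. Of 43 S phase genes 40 were expressed, and the median difference was -1.52, with 34 below 0 and 6 above. Only Ubr7 was past the limit, at 1.23, 0, 0, 0.47 and 0.26 FPKM against 107, 13.6 and 1.51 FPKM. Mean log2 levels of the S phase genes were 5.21, 4.37, 2.64, 2.97 and 3.41 in neuroblasts 1 to 5 and 4.15, 5.94 and 4.81 in Prom1+ cells 1 to 3. For the G2/M phase genes they were 5.24, 5.96, 7.86, 7.13 and 7.91 and 6.73, 5.61 and 6.99. Neuroblasts 3, 4 and 5, high in G2/M genes, were the lowest in S phase genes, and neuroblast 1 was the reverse. With 5 and 3 cells, the phases at which they happened to be caught cannot be told apart from a difference between the groups. Over all 97 cell cycle genes 94 were expressed, the median difference was -0.25, and 1 gene was past the limit in each direction (1.06% each, beside 1.89% and 2.49% of all genes).

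**Figure D4:**
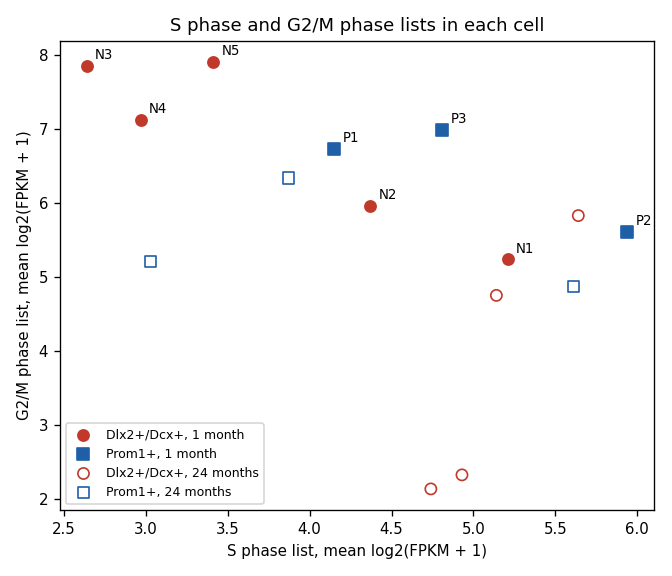
Mean log2(FPKM + 1) of 43 S phase genes (horizontal) and 54 G2/M phase genes (vertical) in each cell, with circles for Dlx2+/Dcx+ and squares for Prom1+ cells, filled at 1 month and open at 24 months. The 1-month neuroblasts run from N1, at 5.21 and 5.24, to N3, at 2.64 and 7.86, and the Prom1+ cells P1 to P3 lie at S phase levels of 4.15 to 5.94.

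Few genes of the metabolic and stress lists were past the limit, as for all genes, with 1.89% and 2.49%. Of 12 expressed glycolysis genes and of 12 expressed fatty acid oxidation genes none was past the limit, with medians of -1.19 and -1.54. Over all 19 and 18 listed genes the medians were -0.10 and -0.78. Summed fatty acid oxidation levels were 407 to 1203 FPKM in the neuroblasts and 513 to 1527 FPKM in the Prom1+ cells, with the lowest and highest Prom1+ cell far apart. Of 12 expressed cholesterol synthesis genes 1 was higher in every Prom1+ cell, the isopentenyl diphosphate isomerase gene Idi1 at 0.13, 0, 6.45, 2.85 and 0 FPKM against 42.8, 17.6 and 7.96 FPKM. Among 10 expressed immediate early and stress genes, which dissociation can raise, none was past the limit. Fos stood at 853, 161, 173, 418 and 517 FPKM against 121, 723 and 753 FPKM and Egr1 at 357, 127, 267, 586 and 502 FPKM against 519, 659.6 and 624 FPKM, so all 8 cells carried them. Of the 19 expressed housekeeping genes only Actb was past the limit, with a median difference of -0.26.

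The same comparison was made in the cells of 24 months, which are other cells from other animals. Over the same 7502 genes, 194 were higher in every one of the 4 old neuroblasts, 2.59%, and 424 in every one of the 3 old Prom1+ cells, 5.65%. Of the 142 genes of 1 month 33 were past the limit in the same direction, 23.2% of the list at 1 month and 17% of that at 24 months, and 9 were past it in the opposite direction. Of the 187 genes 26 were shared, 13.9% and 6.13%, and 2 were opposite. The sign at 24 months was the same for 66.9% of the 142 genes, where 41.1% of all expressed genes had that sign, and for 72.2% of the 187, where 57.5% did.

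Dlx and Sp factors were among the neuroblast genes past the limit at both ages. At 24 months Dlx1 stood at 1017, 663, 539.8 and 983 FPKM in the neuroblasts and 0.089, 2.35 and 1.15 FPKM in the Prom1+ cells. Sp9 stood at 417, 99.2, 229 and 103 FPKM against 0.26, 0.061 and 0.21 FPKM, and Tubb3 at 96.2, 207, 181 and 422 FPKM against 0.17, 27.5 and 0.18 FPKM. Dlx5, Gad2, Ncam1, Epha4, Igfbpl1, Tiam2, Celf4, Fscn1 and Ccnd2 were also past the limit at both ages. Sp8 was not, at 139, 22.5, 379 and 0.56 FPKM against 0.2, 0.12 and 0.57 FPKM, since 1 old neuroblast lay within the range of the Prom1+ cells. Phase lists gave other values at 24 months: the G2/M median was -1.84 beside 0.34 at 1 month, with 1 gene higher in every old neuroblast and 11 in every old Prom1+ cell. The S phase median was 1.06 beside -1.52, with 4 and 1 genes. Over all genes the shares at that age were 2.59% and 5.65%. Cdkn1b had a difference of 0.34 at 24 months, beside 1.32 at 1 month.

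On the Prom1+ side, Mfge8, Ggact, Psme2, Enkd1 and Itgav were past the limit at both ages. Mfge8 stood at 0, 0.21, 0.23 and 0.22 FPKM in the old neuroblasts and 909, 140.3 and 536 FPKM in the old Prom1+ cells, and Itgav at 0.6, 0, 0 and 0 FPKM against 466, 183 and 565 FPKM. Genes of both ages picked out after their values were seen include Lhx2, a LIM homeodomain factor of forebrain progenitors, at 0.43, 0.3, 40.5, 51.1 and 7.54 FPKM against 121, 127 and 121 FPKM at 1 month. Ptprz1, a receptor phosphatase of neural progenitors and glia, stood at 10.7, 6.87, 44.7, 56.4 and 32.8 FPKM against 163, 99.0 and 89.4 FPKM, and Dbi, an acyl-CoA binding protein that also modulates GABA receptors, at 188, 728, 385, 776 and 283 FPKM against 1318, 2469 and 1841 FPKM. Tnfrsf19 (Troy), a receptor of stem cells in several tissues, was lower in level but separated as well, at 0, 0, 2.36, 0 and 0.1 FPKM against 5.33, 24.1 and 2.91 FPKM. Egfr was past the limit at 1 month and not at 24 months, where it stood at 93.5, 20.5, 0.12 and 368 FPKM in the neuroblasts and 374, 22.3 and 93.1 FPKM in the Prom1+ cells, a difference of -1.63. Whether these effects differ between ages was not tested, because each group is 1 sample.

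**Figure D5:**
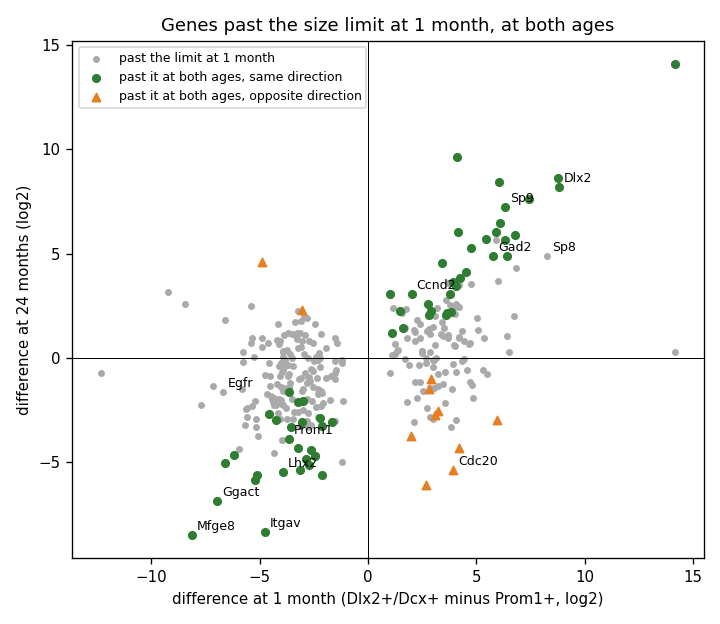
Difference between Dlx2+/Dcx+ and Prom1+ cells at 1 month (horizontal) and at 24 months (vertical), both of log2(FPKM + 1), for the 329 genes past the size limit at 1 month. Circles in colour are the 59 genes past it in the same direction at both ages, among them Dlx2, Sp9, Mfge8 and Itgav, triangles are the 11 in opposite directions, and the point at the upper right is Actb.

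The study assigned the Gfap+ cells to the oligodendrocyte lineage rather than to astrocytes. The 7 Gfap+ cells of both ages, given as lowest, median and highest value, were at 0.2, 1.56 and 6.23 FPKM for Dlx1, 1.17, 1.74 and 2.79 FPKM for Dlx2, 0, 0.44 and 1.04 FPKM for Sp8, 0, 0.21 and 1.10 FPKM for Sp9, 0, 0.19 and 1.58 FPKM for Egfr and 0.73, 1.51 and 181 FPKM for Mfge8. These 4 Dlx and Sp genes stayed below every neuroblast of 1 month in them, and Egfr below every Prom1+ cell. Itgav, at 570.0, 1451 and 2472 FPKM, was above every Prom1+ cell of 1 month in all 7 cells, and Apoe, a lipid carrier of glia that overlapped between the groups at 9.44, 62.4, 138, 304 and 128 FPKM against 248, 385 and 342 FPKM, had 2.18, 577 and 2631 FPKM there.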

How the data were processed

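The authors deposited 1 table of FPKM values for all 22 single cells, made with HISAT2, StringTie and featureCounts on GRCm38 as named in the submitters' processing notes and the study's methods (versions not given in the sources used here). The FPKM table holds no read counts, so depth per cell was not computed and no counting interval is given. Values were used without further scaling, as log2(FPKM + 1), and the difference of group means was taken. Because each subpopulation is 1 sample, no test was made. The members and gene lists were chosen with earlier results of these data known. Genes named are members of those lists, picked by role, the 4 markers, the 10 protein-coding genes with the largest difference in each direction that exceeded 1 FPKM in every cell of the higher group and 0 in at least 1 cell of the lower, and genes listed at 0 throughout 1 group. Any other gene is said to have been chosen after its values were seen. Cell cycle phase genes were the set supplied with Seurat 5.3.0, put into mouse spelling. Gene identifiers were matched to GENCODE M21 (86.7% matched), which gave the GRCm38 positions. Promoter windows came from RefSeq. Sox1 had no row under its symbol. The tissue table was not used here. Alternatives changed the pseudocount, the filter, the scaling, the summary of a group, the size limit, the overlap condition and the cells included. The comparison script, run with Python 3.11.15, numpy 2.4.6 and pandas 2.3.3, was tested on simulated data. Some genes are not reported here.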

Additional observations from a re-analysis of the deposited data

Results flagged for a closer look

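In 15 of 92 sets of neuroblast values looked at, the gap of 1 cell to its nearest neighbour took most of the range of the set. Chance marks about 1 in 20 sets of normally spread values, a rate that does not apply to sets mostly at or near 0, and a gap can be wide relative to the range yet small in size. At 1 month the low cells on the log2(FPKM + 1) scale were neuroblast 1 for Trp53inp2, at 4.61, neuroblast 2 for Tiam2, at 0.62, and neuroblast 5 for Cdkn1a, at 0.00. The high cells were neuroblast 1 for Dll3, at 4.62, neuroblast 2 for Dll1, at 7.03, for Nr2e1, at 6.36, and for Thrsp, at 3.31, and neuroblast 3 for Mfge8, at 5.28, for Ggact, at 1.92, for Tnfrsf19, at 1.75, and for Hes5, at 0.36. Neuroblast 4 was high for Mobp, at 3.30, and neuroblast 5 for Acad8, at 1.32. Among the 4 neuroblasts of 24 months, cell 1 met the same rule for Itgav, at 0.68, and for Mfge8, at 0.00, with all 4 cells below 1 FPKM in both genes.

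Differences in opposite directions at both ages, with no overlap between the cells of either age, were found for 11 genes, and the change between ages was not tested. Of the 142 genes higher in every neuroblast at 1 month 9 were higher in every Prom1+ cell at 24 months, beside 5.65% of all expressed genes, and of the 187 higher in every Prom1+ cell 2 were higher in every neuroblast, beside 2.59%, so neither count stands out from all genes. Cdc20, the mitotic activator of the anaphase-promoting complex, was 3.91 at 1 month and -5.39 at 24 months. Foxn2, a forkhead factor, was 5.94 and -2.97. The tyrosine kinase gene Yes1 was 2.90 and -1.01, and the phosphatase gene Ptpn11 (Shp2) 3.22 and -2.56. Thra, a thyroid hormone receptor, was 3.08 and -2.74. The RNA processing genes Wdr33 and Smg6 were 2.69 and -6.09, and 2.80 and -1.49. Inip, of a complex that senses single-stranded DNA, was 4.22 and -4.29, and Dnajc19, of the mitochondrial import motor, 1.97 and -3.76. The reverse order was seen for Chuk, a kinase of the NF-kappaB pathway, at -4.88 and 4.61, and for the RNA helicase gene Ddx6, at -3.07 and 2.30.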

How the results depend on the processing

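Of 17 alternatives, 8 left out 1 cell. The 20 genes that led the rankings on the neuroblast and Prom1+ sides stayed past the size limit in 300 of 300 recomputed values. Their choice by size and lack of overlap largely fixes this. Genes outside the rankings, some of them with larger differences, were not followed. Of 60 list medians 1 changed sign. Quantile normalization gave 233 genes higher in neuroblasts and 175 in Prom1+ cells in place of 142 and 187, and TPM without mitochondrial genes gave 125 and 246. Without the condition on overlap, 1722 genes were higher in neuroblasts and 2189 in Prom1+ cells. Leaving out 1 cell gave 187 to 291 genes higher in neuroblasts and 247 to 366 in Prom1+ cells, a rise that fewer cells bring by construction. The neuroblast list median of 4.28 was 5.32 with a pseudocount of 0.1 and 2.69 when any value above 0 counted as expressed, and 3.68 to 4.53 with 1 cell left out. The Notch target median of -2.00, from 2 genes, was -3.44 with group medians and -3.33 as a ratio of means. With 1 cell left out and the expression filter applied again, which can change the genes in the list, it ran from -2.46 to 0.47. The change of sign came without Prom1+ cell 1, where the same 2 genes give -1.29, and the value was -0.20 without neuroblast 1. The neural stem cell median ran from -1.69 to -0.89 and the cell cycle median from -0.50 to -0.14 over the same omissions. No paired analysis was possible because no test was made and the replicate numbers only name cells. FPKM values carry no depth, so a low value or a 0 cannot be read as absence.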

Other observations

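Some genes that separated the groups at both ages belong to no list and were picked after their values were seen. Rtn1, a neuronal reticulon of the endoplasmic reticulum, was abundant in both groups but higher in every neuroblast, at 336, 465, 308, 428 and 354 FPKM against 218, 294 and 98.2 FPKM at 1 month and 290.3, 194, 186 and 299 FPKM against 13.3, 48.5 and 31.6 FPKM at 24 months. Zeb2, a zinc finger repressor active in interneuron development, stood at 166, 371, 120.3, 114 and 281 FPKM against 104, 101 and 63.9 FPKM and at 197, 131, 124 and 241 FPKM against 79.0, 43.2 and 106 FPKM. Neither gene overlapped between the groups at either age.

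On the Prom1+ side Zfp36l1, which promotes the decay of messenger RNAs, stood at 0, 0, 15.0, 0 and 0.23 FPKM in the neuroblasts and 46.2, 43.9 and 36.0 FPKM in the Prom1+ cells of 1 month. The lists of glycolysis and fatty acid oxidation genes had no member past the limit at 1 month, and the enzyme genes that follow were picked singly. Idh3a, a subunit of the citric acid cycle enzyme isocitrate dehydrogenase, stood at 0, 3.23, 0.83, 0 and 0.25 FPKM against 10.1, 10.1 and 26.1 FPKM, and Pycrl, an enzyme of proline synthesis, at 0, 0, 0, 0.31 and 5.53 FPKM against 44.8, 30.4 and 132 FPKM. Atic, of purine synthesis, was listed at 0 in all 5 neuroblasts and stood at 3.30, 2.41 and 1.16 FPKM in the Prom1+ cells. Mtap, of methionine salvage, stood at 0, 0, 0, 0.69 and 0 FPKM against 29.6, 12.8 and 5.75 FPKM. At 24 months the Prom1+ values were 13.9, 115 and 60.5 FPKM for Idh3a, 99.6, 13.9 and 163 FPKM for Pycrl, 10.6, 11.2 and 3.76 FPKM for Atic and 15.9, 0.3 and 0.35 FPKM for Mtap. The differences at that age were -4.30, -5.86, -3.08 and -1.63 in the same order. That of Mtap rests mostly on old Prom1+ cell 1, since cells 2 and 3 were below 1 FPKM.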
